A study of Mus musculus with 12 samples.

Results

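The genes of ketone body oxidation, Bdh1, Oxct1 and Acat1, were described in mouse triceps brachii, a muscle of the upper forelimb. They were the rows of the expression table with these 3 symbols, 3 of 10187 genes, and all 3 passed the filter on low values that left 7247 genes for testing. The 3 genes were chosen by measured values of these mice. Which values is not recorded. Their difference in normalized read count between active and inactive mice was already known and was taken as the one used. It is therefore given below as a description with no p-value, and nothing is read from activity calls of the 3 genes. If genotype values also played a part in the choice, the p-values for genotype, interaction and ratios may be too small. The 12 mice were C57/BL6 males, 3 to a group, and their polyadenylated RNA gave a normalized read count per gene. The study crossed physical activity with myostatin genotype, and asked how each factor, and the 2 together, altered the muscle transcriptome.

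All 12 mice ate chow with 0.025% tamoxifen for 6 weeks in total between 4 and 6 months of age, which depleted myostatin where the Mstn gene was floxed. Inactive wild-type mice (IW) had a normal Mstn gene and no wheel, and inactive myostatin-reduced mice (IM) had the floxed gene and no wheel. Mice of the active groups, wild-type (AW) or with the floxed gene (AM), moved at 6 months of age to individual cages with running wheels, for 12 weeks. Mice had been housed 2 to 3 per cage until then, so single housing and wheel access cannot be told apart. Per the study's methods, the myostatin-reduced and control mice that were sampled had been matched for running behaviour. Which mice were matched to each other was not stated, so the main fit does not pair them. The promoter that drove Cre recombinase, and whether wild-type mice carried Cre, are not given in the sources used here. Mstn checked the genotype labels, and not the activity labels: its normalized read count was 16.1, 8.70 and 13.5 in AM mice and 18.3, 17.2 and 21.6 in IM mice. Every wild-type mouse was higher, from 79.7 to 138. Estimated depth was 9023996 to 12184719 reads per mouse, at which 3 reads correspond to 0.231 to 0.316 normalized reads.

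Ketone bodies are made in the liver from fatty acids during fasting or long exercise and are burned in muscle, heart and brain. In the mitochondria of those tissues Bdh1 (3-hydroxybutyrate dehydrogenase) oxidizes 3-hydroxybutyrate to acetoacetate. Oxct1 (succinyl-CoA:3-oxoacid CoA transferase) then moves coenzyme A from succinyl-CoA to acetoacetate, the step that the liver lacks and that commits a ketone body to oxidation. Acat1 (acetoacetyl-CoA thiolase) splits acetoacetyl-CoA into acetyl-CoA for the tricarboxylic acid cycle, and it also serves the last step of isoleucine breakdown.

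The genes lie on separate chromosomes (build NCBIM37, mm9). Bdh1 spans chromosome 16 from 31422366 to 31458987 on the plus strand, with 4 annotated protein-coding transcripts. Oxct1 spans chromosome 15 from 3976383 to 4105344 on the plus strand, with 17 exons. Acat1 spans chromosome 9 from 53388627 to 53418487 on the minus strand, with 12 exons. Non-coding genes overlap Bdh1 (Gm15743) and Oxct1 (BC037032 and Gm15632) on the opposite strand, and use of strand in the counting was not stated, so reads from such a pair cannot be told apart. No annotated gene overlaps Acat1.

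Promoter sequence is shown because the 3 messages rose and fell together across the mice. RefSeq start sites (table build GRCm38.p6) were found for Bdh1, with 2 sites, and for Oxct1, but not Acat1. Each window below is the 200 bases from 250 to 51 before a start site, on the plus strand, placed by an exact match in mm9. The first Bdh1 window is chr16:31422133-31422332, the second chr16:31428589-31428788 and the Oxct1 window chr15:3976178-3976377. Capitals mark the letters GGGTCA, a variant of the half-site that many nuclear receptors bind, or their reverse complement TGACCC.
Bdh1 first start: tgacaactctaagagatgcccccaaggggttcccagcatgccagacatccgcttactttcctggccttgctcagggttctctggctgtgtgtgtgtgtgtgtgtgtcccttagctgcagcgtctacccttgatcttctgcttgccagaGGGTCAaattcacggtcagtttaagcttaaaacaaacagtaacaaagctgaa
Bdh1 second start: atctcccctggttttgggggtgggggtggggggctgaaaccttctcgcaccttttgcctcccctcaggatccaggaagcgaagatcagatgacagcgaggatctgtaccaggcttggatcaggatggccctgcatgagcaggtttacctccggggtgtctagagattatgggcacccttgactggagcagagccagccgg
Oxct1: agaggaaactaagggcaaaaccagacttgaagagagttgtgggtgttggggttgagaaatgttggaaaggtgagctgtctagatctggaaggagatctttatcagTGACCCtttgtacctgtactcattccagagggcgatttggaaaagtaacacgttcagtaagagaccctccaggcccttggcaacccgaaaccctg
The match in the first Bdh1 window began 102 bases before the start site, on the plus strand, and that in the Oxct1 window was on the minus strand. Of 32851 promoter windows of the same length, 9.41% held GGGTCA on either strand. Also searched on both strands were AGGTCA (11.4% of windows) and AAGGTCA (3.36%), which contains it, GGGCGG (24.6%), TATAAA (9.14%) and CAGCTG (10.3%). None of those 5 occurred in these 3 windows, and the second Bdh1 window held none of the 6. These matches describe letters in the windows only. The motifs were chosen after the windows had been seen.

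Bdh1 was the most variable of the 3 genes. IW mice 1, 2 and 3 had 43.3, 10.5 and 18.5 normalized reads of Bdh1, and IM mice had 5.38, 9 and 1.93. Among active mice they were 40.9, 118 and 95.55 in AW and 69.7, 91.1 and 38.3 in AM. IM mice held the 3 lowest values of all, each AM mouse was above each IM mouse, and IW mouse 1 stood above AW mouse 1 and AM mouse 3. Group means were 24.1 ± 17.1 (IW), 5.44 ± 3.54 (IM), 84.8 ± 39.6 (AW) and 66.4 ± 26.6 (AM) (SD, n = 3). The highest mouse was 61.1 times the lowest, and the spread within groups (SD 0.836 on the log2 scale) was larger than that of 99.7% of tested genes.

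Oxct1, the gene of the committing step, was the most abundant of the 3 genes. In normalized reads, IW mice 1, 2 and 3 had 639, 523 and 482 and IM mice 488, 494 and 421. Among active mice, AW had 611, 844 and 837 and AM had 796, 758 and 627. IW and IM overlapped, IW and AW overlapped through IW mouse 1 and AW mouse 1, and the AM mice were above the IM mice. Group means were 547.7 ± 81.3 (IW), 467.5 ± 40.1 (IM), 764.0 ± 133.0 (AW) and 726.9 ± 88.7 (AM) (SD, n = 3). The highest mouse was 2.00 times the lowest.

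Acat1, the thiolase, varied least within groups (SD 0.140 on the log2 scale, against 0.202 for Oxct1). Normalized reads of Acat1 were 278, 219 and 242 in IW mice 1, 2 and 3, and 197, 206 and 174 in IM mice. In AW mice they were 262, 316 and 321, and in AM mice 268, 294 and 270.1. IM again held the 3 lowest values, AM lay above IM without overlap, and IW mouse 1 exceeded AW mouse 1. Group means were 246.2 ± 29.9 (IW), 192.0 ± 16.5 (IM), 299.7 ± 33.1 (AW) and 277.3 ± 14.4 (AM) (SD, n = 3).

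**Figure D1:**
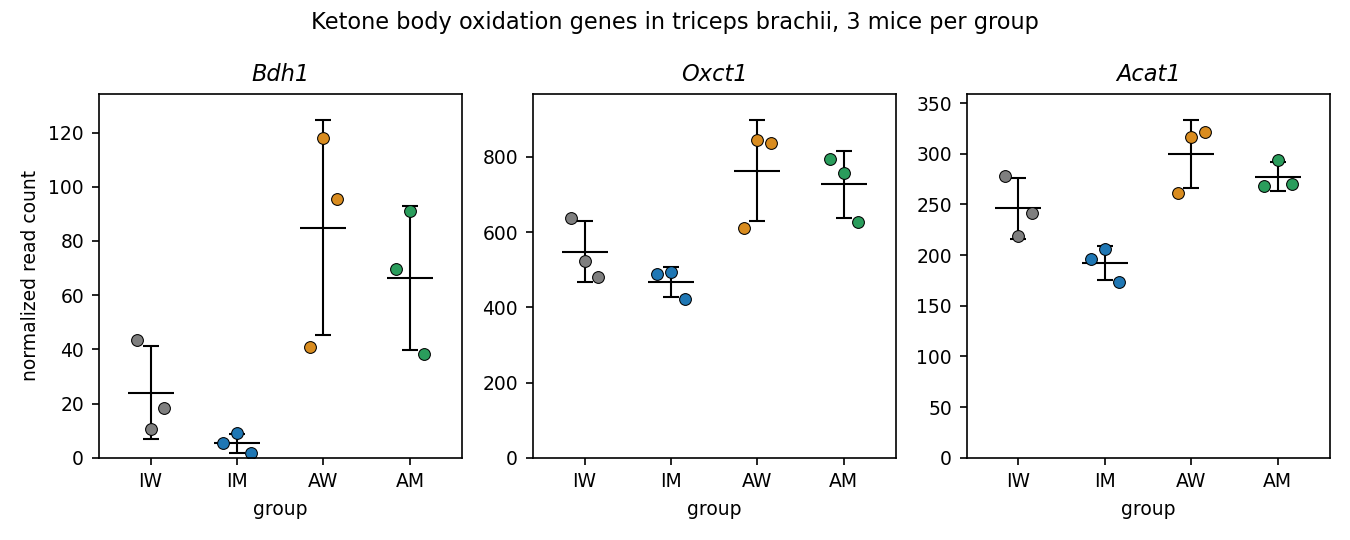
Normalized read counts of Bdh1, Oxct1 and Acat1 (linear axes from 0) in each mouse of the 4 groups, with points in order of mouse number, a horizontal line at the group mean and bars of 1 SD (n = 3). The order of the means is IM, IW, AM, AW for each gene, and the AM points lie above the IM points in each panel.

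The order of the group means was IM, IW, AM, AW for all 3 genes. Neighbouring ranges overlapped between IW and AM and between AM and AW for each gene. Between IM and IW they overlapped for Oxct1 but not for Bdh1 and Acat1. All IM mice were below all IW mice in those 2 genes and in 12.7% of tested genes. IM mouse 3 was the lowest mouse for every one of the 3 genes, and AW mice 2 and 3 were the highest pair. Per kilobase of annotated exon, which allows genes to be compared, the mean level over all mice was 12.1 normalized reads for Bdh1, 177.6 for Oxct1 and 74.5 for Acat1. These levels were above those of 55.3%, 96.9% and 92.2% of 7172 tested genes with a length. The Bdh1 level per kilobase ranged from 1.46 ± 0.949 in IM to 22.8 ± 10.6 in AW (SD, n = 3).

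With activity, over both genotypes, the mean normalized read count was 5.12 times as high for Bdh1, 1.47 times for Oxct1 and 1.32 times for Acat1. On the log2(value + 1) scale the differences of active minus inactive mice in limma were 2.67 (SE 0.388), 0.55 (SE 0.10) and 0.41 (SE 0.073). Limma called 3 of the 3 genes at an adjusted p under 0.05, beside 14.5% of all tested genes in either direction (7.99% higher and 6.51% lower). As this contrast was taken as the one that chose the genes, nothing is read from that count. Bdh1 had the second highest difference of 7247 genes, Oxct1 stood at 108 and Acat1 at 244. The median over all tested genes was -0.02.

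Within genotypes the active mice were higher on average for each gene. Among wild-type mice the active mean was 3.52 times the inactive mean for Bdh1, 1.39 for Oxct1 and 1.22 for Acat1, with log2 differences of 1.87 (SE 0.548), 0.47 (SE 0.141) and 0.28 (SE 0.104). None of the 3 was called there, where 0.0276% of tested genes were. IW and AW ranges overlapped for each of the 3, while 9.09% of tested genes had all AW mice above all IW mice. Among myostatin-reduced mice the ratios of means were 12.2, 1.55 and 1.44, with log2 differences of 3.47 (SE 0.548), 0.63 (SE 0.141) and 0.53 (SE 0.104). All 3 were called, beside 7.84% of tested genes, and all AM mice were above all IM mice, as in 14.5% of tested genes. These counts use the values taken as those that chose the genes, and nothing is read from them. With Myh2, a fibre type marker, in the model the count was 1 of 3 in wild-type mice (4 of 7247 genes called), 0 of 3 in myostatin-reduced mice (1 gene called) and 1 of 3 over both genotypes (28 genes called). In wild-type mice it was 3 of 3 with mice weighted by their quality, where 415 genes were called, and 1 of 3 without AW mouse 1, where 198 were. In myostatin-reduced mice, Oxct1 lost its call in the fit with slow fibre markers as a covariate (187 genes called) and without IM mouse 1 (219 genes) or IM mouse 2 (142 genes). Without IM mouse 3 (118 genes called) or AM mouse 2 (86 genes), both Oxct1 and Acat1 lost theirs and Bdh1 kept its call. Nothing is read from these calls either, that of Bdh1 included, because they rest on the same activity values. For Bdh1 the difference among myostatin-reduced mice was the highest of the 7247 genes. Leaving out 1 mouse at a time, the difference over both genotypes stayed between 2.43 and 2.93 for Bdh1, 0.51 and 0.63 for Oxct1, and 0.37 and 0.45 for Acat1.

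The genotype comparison asked whether their levels changed when myostatin was reduced. Levels were lower on average in myostatin-reduced mice, but none of the 3 genes passed the test over all genes, where 5.78% of tested genes did. The log2 difference of myostatin-reduced minus wild-type mice was -1.11 for Bdh1 (SE 0.388, 95% interval -1.95 to -0.27, limma adjusted p = 0.116). For Acat1 it was -0.23 (SE 0.073, interval -0.39 to -0.07, limma adjusted p = 0.0880), and for Oxct1 -0.14 (SE 0.10, interval -0.36 to 0.07, limma adjusted p = 0.433). The Acat1 difference passed the threshold when mice were weighted by their quality (-0.24, limma adjusted p = 0.0475) and without AW mouse 1 (-0.28, adjusted p = 0.0316). It was smaller with Myh2 as a covariate (-0.11, limma adjusted p = 0.295) and with slow fibre markers as a covariate (-0.14, adjusted p = 0.164).

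Among inactive mice, the IM mean was 0.226 times the IW mean for Bdh1, 0.780 for Acat1 and 0.854 for Oxct1. The log2 differences of -1.91 (SE 0.548, limma adjusted p = 0.0933), -0.35 (SE 0.104, adjusted p = 0.102) and -0.22 (SE 0.141, adjusted p = 0.452) did not pass the test, as 2.51% of genes did. A fit with Myh2, a fibre type marker, as a covariate gave -0.41 for Bdh1, -0.12 for Acat1 and 0.11 for Oxct1, and one with a score of slow fibre markers gave -1.16 for Bdh1. Among active mice the AM means were 0.782, 0.925 and 0.951 times the AW means in the same order. Their log2 differences of -0.30 (SE 0.548, limma adjusted p = 0.86), -0.11 (SE 0.104, adjusted p = 0.719) and -0.06 (SE 0.141, adjusted p = 0.887) were within the spread between mice, and 0.207% of genes were called. Without AM mouse 3 the difference in active mice turned to 0.04 for both Bdh1 and Oxct1.

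The interaction, the genotype difference in active minus that in inactive mice, was positive for all 3 genes and passed the test for none. For Bdh1 it was 1.61 (SE 0.775, interval -0.07 to 3.29, unadjusted p = 0.0595, limma adjusted p = 0.89). For Acat1 it was 0.25 (SE 0.146, interval -0.07 to 0.56, limma adjusted p = 0.89) and for Oxct1 0.16 (SE 0.200, interval -0.28 to 0.59, adjusted p = 0.915). Without 1 mouse at a time the Oxct1 interaction was 0.0042 (without AW mouse 1) to 0.26 (without AM mouse 3). Limma called 0 of 7247 genes for the interaction (0% of tested genes), with 297 at an unadjusted p under 0.05. Hence the larger Bdh1 difference with activity under reduced myostatin than in wild-type mice was not shown to exceed the spread between mice.

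The proportions of the 3 messages within a mouse do not depend on scaling between samples. Bdh1 as a percentage of Oxct1 was 6.78, 2.01 and 3.83 in IW mice and 1.10, 1.82 and 0.458 in IM mice. It was 6.71, 14.0 and 11.4 in AW mice and 8.76, 12.0 and 6.10 in AM mice. The IM mice had the 3 lowest proportions and did not overlap with any other group, while AW and AM overlapped. By genotype, the log2 ratio of Bdh1 to Oxct1 differed by -1.09 (exact permutation test within activity levels, two-sided p = 0.05, 0.09 adjusted over 3 ratios; smallest possible p = 0.005). That of Bdh1 to Acat1 differed by -1.01 (exact permutation p = 0.06, adjusted 0.09).

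Acat1 and Oxct1 kept nearer proportions. Acat1 was 45.2% ± 4.41 of Oxct1 in IW, 41.1% ± 0.708 in IM, 39.6% ± 2.89 in AW and 38.5% ± 4.73 in AM mice (SD, n = 3). Its log2 ratio to Oxct1 differed by -0.09 between genotypes (exact permutation p = 0.235, adjusted 0.235). The IM range, 40.3% to 41.7%, ended just under the lowest IW mouse (41.8%), and every other pair of groups overlapped. No ratio passed the test after adjustment.

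**Figure D2:**
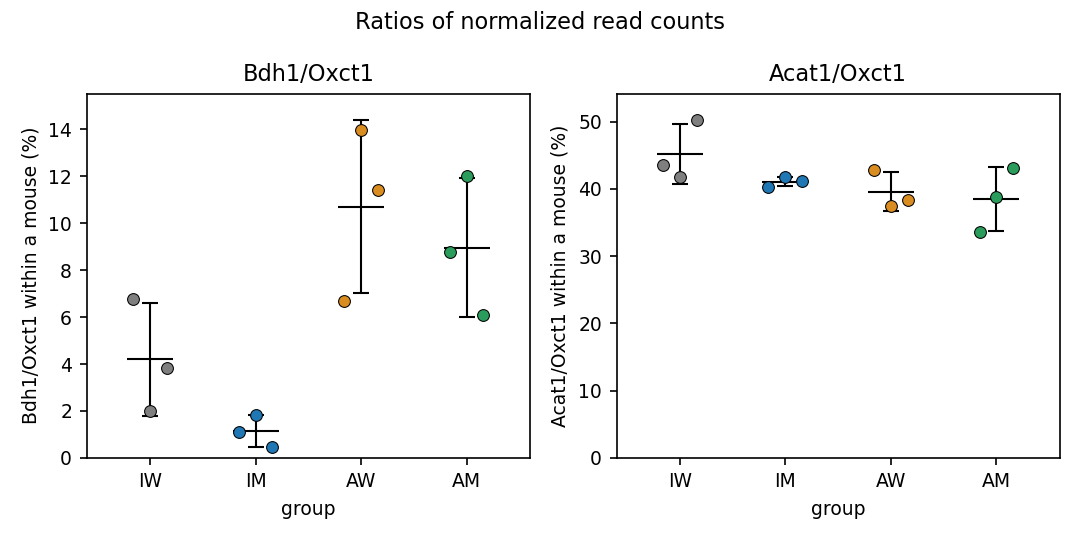
Bdh1 (left) and Acat1 (right) normalized read counts as a percentage of Oxct1 in the same mouse, by group, with points in order of mouse number and mean and SD (n = 3) as lines and bars. Bdh1 was 1.13% of Oxct1 on average in IM mice against 10.7% in AW mice, while Acat1 stayed between 33.7% and 50.2% in all mice.

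The levels of the 3 genes moved together from mouse to mouse. Over the 12 mice, Pearson's r of the log2 values was 0.984 for Bdh1 with Acat1, 0.951 for Bdh1 with Oxct1 and 0.922 for Oxct1 with Acat1 (Spearman's rho 0.958, 0.944 and 0.909). With the group means removed r was 0.941, 0.853 and 0.793. Values of a mouse share its library and scaling, and the groups are part of the first set of correlations, so these are descriptions.

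The same mice were high or low in fibre type markers. Myh2, the myosin heavy chain of fast oxidative fibres, was at 2515, 627 and 968 normalized reads in IW mice 1, 2 and 3, and at 354, 557 and 89.9 in IM mice. In AW mice it had 899, 4900 and 3102, and in AM mice 2932, 3323 and 1015. IM mouse 3 was lowest and AW mouse 2 highest, and IW mouse 1 stood above AW mouse 1 and AM mouse 3, as it did for the 3 ketone body genes. Myh2 itself was higher with activity by 2.04 (SE 0.537, limma adjusted p = 0.0251), and its genotype difference was -1.15 (adjusted p = 0.231). Its r with Bdh1, Oxct1 and Acat1 over the 12 mice was 0.961, 0.916 and 0.946, and 0.978, 0.892 and 0.892 with group means removed.

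Slow fibre markers had lower correlations with the 3 genes. The 11 of 11 listed slow fibre genes summed to 94.3 to 1369.7 normalized reads in IW, 78.3 to 111.7 in IM, 151.2 to 1831 in AW and 116.9 to 1343 in AM mice. Myh7, the slow myosin heavy chain, was at 1.29 in IW mouse 2, 1.43 in an IM mouse and 2.73 in AM mouse 3, against 498 in the highest AW mouse. A slow fibre score, the mean over the 11 genes of the log2 deviation from each gene's mean, can order the mice differently from the sum. Its r with Bdh1, Oxct1 and Acat1 was 0.827, 0.820 and 0.833. Fast fibre markers (10 of 10) summed to 185605 to 215794 in IW, 228397 to 238235 in IM, 154329 to 190134 in AW and 162927 to 208765 in AM mice. The tissue thus carried the markers of a fast limb muscle. With activity 1 of these genes was called higher and 4 lower. The higher one, Myh1, went against the sum and rose by 1.51 (SE 0.227, limma adjusted p = 0.0019). Its means were 7070 in IW, 2433 in IM, 10844 in AW and 11774 in AM mice, with IM minus IW at -1.44 (limma adjusted p = 0.0399).

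Fits that held a marker in the model gave smaller differences. With the slow fibre score as a covariate the activity difference was 1.94 for Bdh1 (SE 0.257), 0.38 for Oxct1 and 0.29 for Acat1. With Myh2 as a covariate, an alternative added after the data were seen, it was 1.23 for Bdh1 (SE 0.136), 0.24 for Oxct1 (SE 0.078) and 0.19 for Acat1 (SE 0.063). The Bdh1 genotype difference with Myh2 in the model was -0.30 (limma adjusted p = 0.162) and the Bdh1 interaction 0.21 (adjusted p = 0.767). The Oxct1 genotype difference was then 0.04 and its interaction -0.15, both reversed in sign. Myh2 differed with activity itself, so a fit with it removes part of any activity difference that ran with Myh2. In whole muscle a change in the share of a fibre or cell type and a change of RNA within it cannot be told apart.

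**Figure D3:**
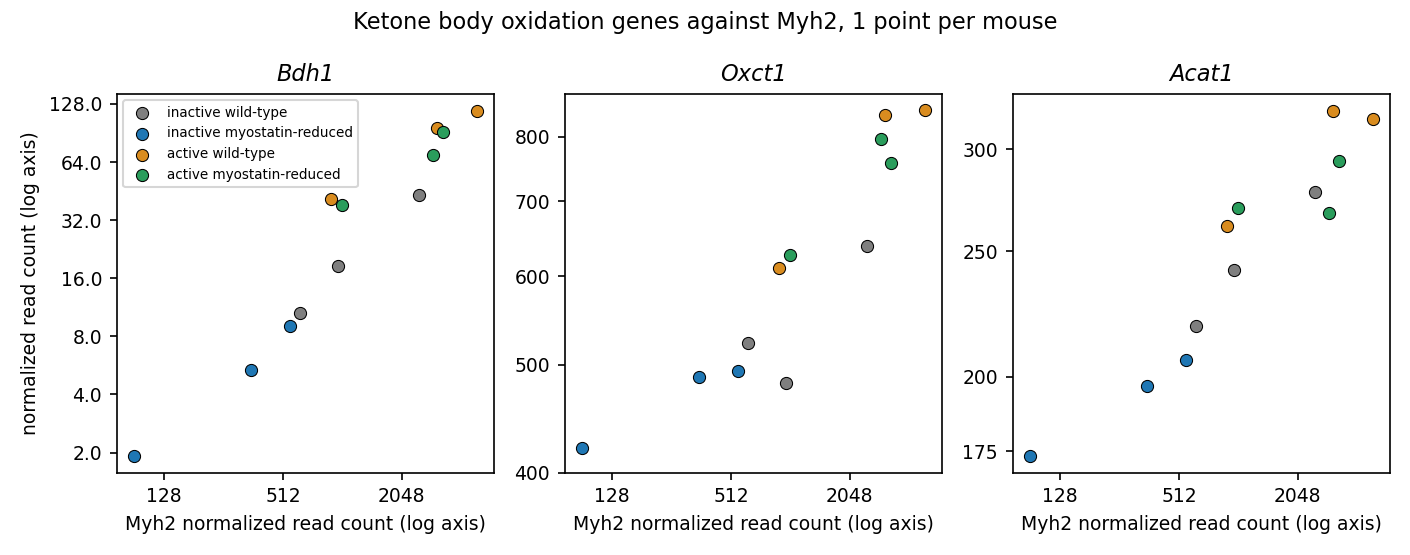
Normalized read counts of Bdh1, Oxct1 and Acat1 against that of Myh2, 1 point per mouse, coloured by group, with log scales on both axes. Points of each panel run from IM mouse 3 (Myh2 at 89.9) to AW mice 2 and 3, and at Myh2 near 1000 the AW and AM mice lie above the IW mouse, for example 40.9 and 38.3 against 18.5 normalized reads of Bdh1.

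Markers of other cell types were checked beside these results. Of 7 endothelial genes, 5 were called higher with activity, with summed normalized reads of 273.6 to 366.8 in IW, 247.6 to 260.0 in IM, 280.6 to 472.8 in AW and 316.6 to 539.5 in AM mice. The 5 adipocyte genes in the table summed to 123.9 to 177.9 in IW, 105.3 to 131.1 in IM, 159.6 to 226.2 in AW and 135.5 to 229.8 in AM mice, and 1 of the 2 tested was called higher with activity. The called gene, Fabp4, had a mean of 119.2 normalized reads and made up most of the sum. Its active mean was 1.58 times its inactive mean, against 1.15 for Cfd. The genes under the filter went the other way, with ratios of 0.820 for Adipoq, 0.797 for Plin1 and 0.889 for Cidec. Of the fibroblast (6 tested), macrophage (1) and Schwann cell (3) genes 0 were called with activity. No listed marker in the table was at 0 in all mice. The part of these cells in the ketone body gene differences was not tested.

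Other genes of ketone body metabolism and transport were fewer in the table. Of 16 listed genes 6 were present and 5 passed the filter, and with activity 1 was called higher and 1 lower. Slc16a1 (MCT1), a carrier of lactate and ketone bodies into oxidative tissues, rose by 0.51 (SE 0.118, limma adjusted p = 0.0138), from 55.3 ± 14.2 in IW to 69.6 ± 4.58 in AW and from 38.7 ± 3.34 in IM to 62.9 ± 13.1 in AM mice (SD, n = 3). Slc16a3 (MCT4), the lactate exporter of glycolytic fibres, fell by 0.36 (SE 0.088, limma adjusted p = 0.0196).

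Slc16a1 resembled the 3 enzymes in its group order, with IM lowest and AW highest. With activity, Slc16a6 differed by 0.10 (limma adjusted p = 0.599) and Bsg, the chaperone of MCT1 and MCT4, by -0.07 (adjusted p = 0.487). Aacs, the cytosolic acetoacetyl-CoA synthetase, was below the filter at 4.16 normalized reads in IW, 6.02 in IM, 3.58 in AW and 6.47 in AM mice. None of the 5 tested genes was called for genotype, with Slc16a1 at -0.32 (limma adjusted p = 0.132). The list's median difference with activity was 0.10, against 0.55 for the 3 enzymes and -0.02 for all tested genes. Bdh2 and other genes of the list were not analysed here.

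Pathways next to ketone body oxidation were described by their counts. In isoleucine breakdown, which Acat1 completes, 5 of 8 tested genes were called higher with activity and 0 lower, with a median difference of 0.22. The largest were the enoyl-CoA hydratase Echs1 at 0.52 (limma adjusted p = 0.00253), Bckdhb at 0.36, Dld at 0.35 and Hsd17b10 at 0.23. Of fatty acid beta-oxidation and thiolase genes 12 of 15 were called higher and 0 lower, with a median of 0.40. Acaa2, the thiolase of mitochondrial beta-oxidation, rose by 0.91 (SE 0.141, limma adjusted p = 0.00204), and the acyl-CoA dehydrogenases Acadl and Acadvl by 0.79 and 0.67.

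In the tricarboxylic acid cycle, which supplies succinyl-CoA to Oxct1 and takes up the acetyl-CoA, 15 of 17 genes were called higher with activity and 0 lower, with a median of 0.25. Idh2, the NADP-dependent mitochondrial isocitrate dehydrogenase, rose by 1.20 (SE 0.263, limma adjusted p = 0.0113), Sdhb by 0.65, Dlst by 0.42 and Sdhd by 0.40. The difference of Bdh1 was larger than that of every tested gene in these 3 pathways, while those of Oxct1 and Acat1 lay within the ranges of the beta-oxidation and tricarboxylic acid cycle genes. For genotype, 0 genes were called in each of the 3 pathways, with medians of -0.01, -0.14 and -0.13. Among inactive mice alone 1 of these genes was called, Acadl, with IM minus IW at -0.88 (limma adjusted p = 0.0407).

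Regulators of oxidative metabolism showed 2 of 7 tested genes called higher with activity and 0 lower, with a median of 0.16. Both belong to the estrogen-related receptors, with Esrra at 0.36 (SE 0.061, limma adjusted p = 0.0029) and Esrrg at 0.83 (SE 0.227, adjusted p = 0.0293). Esrrb, another of these receptors, was under the filter and not tested, with a mean of 8.66. It had 5.32 ± 3.25 normalized reads in IW, 2.39 ± 1.36 in IM, 13.2 ± 6.28 in AW and 13.8 ± 4.83 in AM mice (SD). Its active mean was 3.50 times its inactive mean, and the study listed it as higher with activity. Ppara, the fatty acid receptor that drives ketogenesis in liver, was at 0.50 (limma adjusted p = 0.0547) and Ppargc1a, the coactivator, at 0.16 (adjusted p = 0.276). None of the 7 tested was called for genotype.

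**Figure D4:**
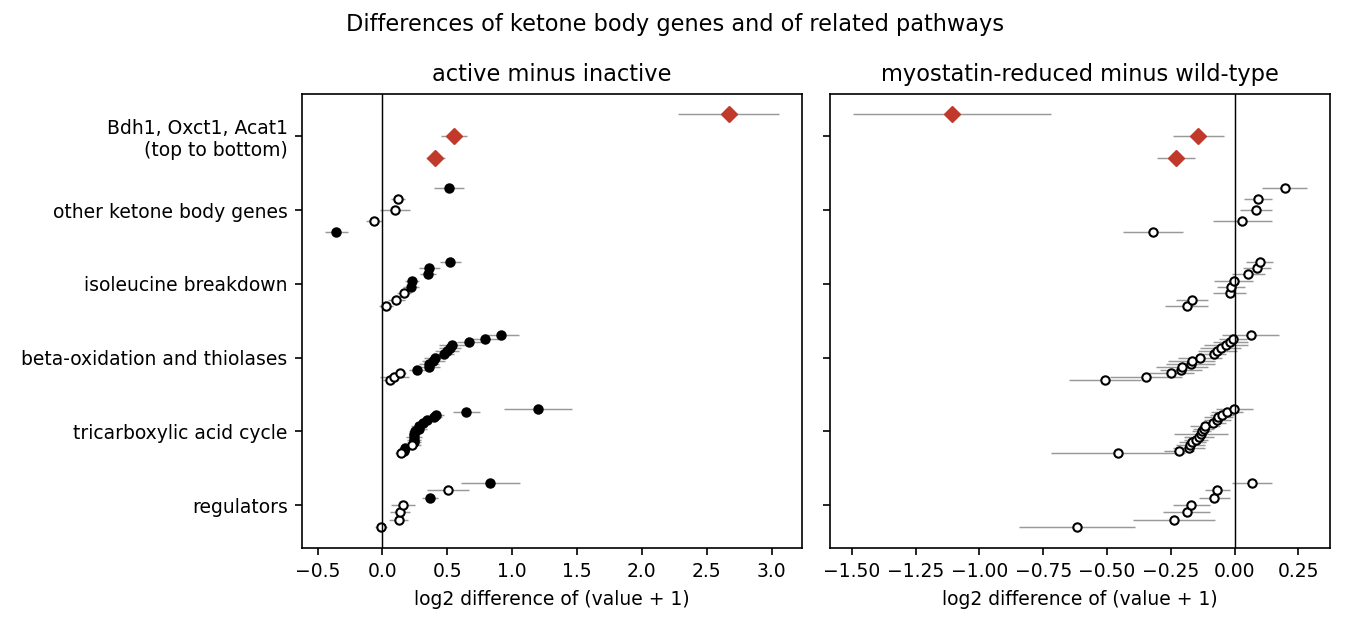
Log2 differences of (value + 1) for active minus inactive mice (left) and myostatin-reduced minus wild-type mice (right), with bars of 1 SE, for Bdh1, Oxct1 and Acat1 (red diamonds, from top to bottom) and the tested genes of 5 lists (circles, filled where limma called them). Bdh1 stands at 2.67 on the left and -1.11 on the right, farther from 0 than every listed gene, and no listed gene is filled on the right.

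The genes most like each enzyme across the 12 mice were found among the 2554 other genes whose mean reached 50. For Bdh1 they were Ldhb (r 0.991), the lactate dehydrogenase subunit of oxidative tissues, then Echs1 (0.987), Etfdh (0.985), Acaa2 (0.984) and Hsdl2 (0.980). With group means removed their r with Bdh1 was 0.914 to 0.975. For Oxct1 they were Uqcrc2 (0.979), a subunit of respiratory complex III, Mdh1 (0.973), Ckmt2 (0.972), Slc41a1 (0.971) and Hsdl2 (0.970). For Acat1 they were Ndufs8 (0.991), a subunit of complex I, Acadl (0.991), the fatty acid binding protein Fabp3 (0.989), myoglobin or Mb (0.987) and Echs1 (0.986). Fabp3 put the 12 mice in the same order as Acat1 did (Spearman's rho 1). Echs1 was in the lists of Bdh1 and Acat1, and Hsdl2 in those of Bdh1 and Oxct1.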

How the data were processed

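Polyadenylated RNA of triceps brachii from 12 mice was sequenced as single-end reads of 65 bases. Per the submitters' processing notes and the study's methods, the authors mapped reads with CASAVA (version not given in the sources used here) to mm9, counted them in RefSeq exons and summed them per gene. The deposited unit is a signal: read counts per gene that the authors normalized so that means trimmed by 5% at each end were equal between samples, and not divided by length. Below a value of 5, 89.4% to 91.5% of entries equalled a whole number of reads (tolerance 0.0065), and 66.4% to 70.2% did from 20 to 50, so whole reads were not recovered and no count model was run. Floors and depths cover counting error only, and the 95% intervals of differences cover the spread between mice. All 12 columns were matched to samples by name, and no 2 were identical.

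Differences were tested with limma 3.58.1 in R 4.3.3 (lmFit, contrasts.fit, eBayes with trend) on log2(value + 1), which understates changes of low values. A mean per group was fitted over all 12 samples to the 7247 genes with a mean of at least 10. Two-sided p-values were adjusted over all tested genes by the Benjamini-Hochberg method, and genes were called at an adjusted p under 0.05. P-values measure the spread between the mice of a group. The limma steps were tested on simulated data. Ratios of genes within a mouse were tested by an exact permutation of genotype within activity levels (400 arrangements, SciPy 1.17.1).

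The 3 genes, the gene lists, the markers and the naming rule were chosen with earlier results of these data known. The rule named the 3 genes, all listed genes of ketone body metabolism in the table (1 is not reported here), Mstn, Myh7, up to 4 called genes of each other list with the largest difference with activity, and the 5 genes with the highest Pearson r with each of the 3 among other genes whose mean reached 50. Ppara, Ppargc1a, Esrrb, Myh2, Cfd, Adipoq, Plin1 and Cidec were named outside it, after their values were seen. Sample titles gave the replicate numbers. Same-numbered IM and AM mice deviated together (correlations 0.236, 0.171 and 0.322), which was not so for the other pairs of groups, and the titles do not state a pairing. Alternatives were other pseudocounts, filters and scalings, sample weights, a replicate block, marker covariates and leaving out each mouse.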

Additional observations from a re-analysis of the deposited data

How the results depend on the processing

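Over all comparisons 414 of 434 recomputed values of the 3 genes were labelled the same. For activity this meant the same direction and a move smaller than the spread between mice, whatever the call. For genotype and interaction it meant the same direction and the same side of the threshold. None of the main genotype or interaction values was called, so staying uncalled was enough and none could be labelled weaker. With Myh2 as a covariate, added after the data were seen, the activity differences of Bdh1, Oxct1 and Acat1 were 1.23, 0.24 and 0.19, and among myostatin-reduced mice 1.34, 0.16 and 0.20. The slow fibre score gave 2.53, 0.41 and 0.38 for the latter. Reversed with Myh2 were the Oxct1 genotype difference (0.036), its interaction (-0.15) and its genotype difference in inactive mice (0.11). In active mice the slow fibre score reversed the genotype differences of Bdh1 (0.0060) and Oxct1 (0.0093). There, fits without 1 mouse gave -0.76 to 0.04 for Bdh1, reversed without AM mouse 3 (0.042), and -0.22 to 0.04 for Oxct1, reversed without AW mouse 2 (0.017), AW mouse 3 (0.010) or AM mouse 3 (0.039). The Acat1 genotype difference passed the threshold with sample weights (-0.24, limma adjusted p = 0.0475) and without AW mouse 1, over a range of -0.28 to -0.18. It was -0.11 with Myh2 and -0.14 with the slow fibre score. The genotype ratio of Bdh1 to Oxct1 was -1.32 to -0.82 without 1 mouse, with an unadjusted exact permutation p of 0.02 without AW mouse 1 and 0.03 without AM mouse 2. That of Bdh1 to Acat1 was -1.23 to -0.73, with 0.025 without AW mouse 1. A pseudocount of 5 gave -0.69 (exact permutation p = 0.06) and -0.61 (p = 0.09) for these ratios. Without 1 mouse, Oxct1 was -0.22 to -0.08 for genotype, -0.31 to -0.11 for genotype in inactive mice and 0.0042 to 0.26 for the interaction. The Acat1 interaction was 0.15 to 0.33 without 1 mouse and 0.033 with Myh2 as a covariate. The cause was not tested.

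Counts of called genes moved more. The activity count (1051) was 1740 with sample weights, 401 with the slow fibre score, 28 with Myh2 and 552 (without AW mouse 3) to 1488 (without AW mouse 1). The genotype count (419) was 272 with a mean of at least 50, 219 with Myh2 and 182 (without AW mouse 3) to 573 (without AW mouse 1), and the interaction count 0 to 1 (without IW mouse 3). In inactive mice the genotype count (182) was 334 with weights, 115 with the slow fibre score, 35 with Myh2 and 23 (without IW mouse 1) to 216 (without AW mouse 1). In active mice (15) it was 7 with a mean of at least 50, 29 with the slow fibre score, 45 with Myh2 and 4 (without AW mouse 3) to 18 (without IW mouse 1). The activity count among wild-type mice (2) was 39 with a mean of at least 50, 415 with weights, 28 with the slow fibre score, 4 with Myh2 and 0 (without AW mouse 3, among others) to 198 (without AW mouse 1). Among myostatin-reduced mice (568) it was 931, 187 and 1 with weights, slow fibre score and Myh2, and 86 (without AM mouse 2) to 1098 (without AM mouse 1).

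With the replicate number as a block, counts were 98 for genotype in inactive mice, 9 in active mice, 0 for activity in wild-type mice and 628 in myostatin-reduced mice, and no call of the 3 genes changed. Deviations went together by number only between IM and AM, so elsewhere the block shares only a number. Bdh1 has a mean of 45.2 and therefore no value under the filter of 50.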
